A study of Manihot esculenta with 8 samples.

Results

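Abundant gene IDs whose level stayed within a narrow band in all libraries of control and cold-treated cassava shoots were described here as possible internal references for cold work. They were chosen by a rule on the deposited counts. An ID had to average at least 100 CPM (the count as a share of the library total, scaled to a common size) over the 4 control libraries, and its highest CPM over all 8 libraries could exceed its lowest by at most 25%. Of 31901 IDs, 2012 reached that level and 49 of these (2.44%) also met the limit on spread. The values of all 8 libraries chose the members, so their spread and the difference between their cold and control levels are given as a description, without a test.

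Shoots of wild-type seedlings of cassava, a crop grown in the tropics for its starchy roots (Manihot esculenta, cultivar TM12), were sampled. The 4 control libraries came from seedlings in climate chambers with 16 h light and 8 h dark periods, at 20 °C and 18 °C, and with a humidity of 60%. The 4 cold libraries came from seedlings raised the same way for 2 weeks, then held in a lit room at 4 °C for 3 h and harvested. Strand-specific libraries were made from total RNA of whole shoots. Whether each library stands for a separate plant or pool is not stated in the labels, so p-values and SDs measure only the spread between these samples, which may be technical.

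A reference gene is a transcript used as the internal standard when RNA amounts are compared, for example in quantitative PCR. Its own level must not follow the treatment, because any response of the standard is passed on to every gene measured against it. Actins, tubulins, ubiquitins and translation elongation factors are common choices in plants, and cold is known to alter the level of many plant transcripts, so references are usually checked for each treatment. Several references are often averaged, since their separate errors then partly cancel.

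Totals ranged from 62798223 to 100031792 counts per library. The 1000 most abundant IDs of a library took 36.4% to 38.1% of its counts in 3 libraries (replicate 1 of both groups and cold replicate 3) and 33.4% to 34.6% in the other 5. None of the 31901 IDs matched the RefSeq gene table of the M.esculenta_v8 assembly (0 matches), so no name or function could be given to any ID, the classical reference families could not be located, and shoot markers could not be checked. A CPM value also grows with transcript length, which was not used here, so levels of different IDs are compared only as shares of reads. In whole shoots, fewer cells of a type and less RNA per cell cannot be told apart.

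The steady IDs lay near the lower end of the abundant range. Their mean level over 8 libraries ran from 98.8 to 389.9 CPM with a median of 127.0 CPM, and 6 of the 49 exceeded 200 CPM. Of the IDs with a control mean between 100 and 200 CPM, 43 of 1404 (3.06%) were steady, and between 200 and 400 CPM the number was 6 of 412 (1.46%). No ID with a higher control mean met the limit, in 137 IDs between 400 and 800 CPM and in 59 IDs above 800 CPM. The smallest ratios of highest to lowest CPM in these classes were 1.29 for MANES_10G094400 (mean 409.6 CPM) and 1.37 for MANES_15G054800 (mean 958.5 CPM), both picked after their values were seen. The same limit was met by 491 IDs below 100 CPM, among them 133 of 3341 (3.98%) between 50 and 100 CPM, 209 of 4831 (4.33%) between 25 and 50 CPM and 139 of 5639 (2.46%) between 10 and 25 CPM. Counting error widens the spread of the scarcer IDs more, with a median counting CV (SD over mean) of 2.78% in the last of these classes and 0.98% between 100 and 200 CPM.

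**Figure D1:**
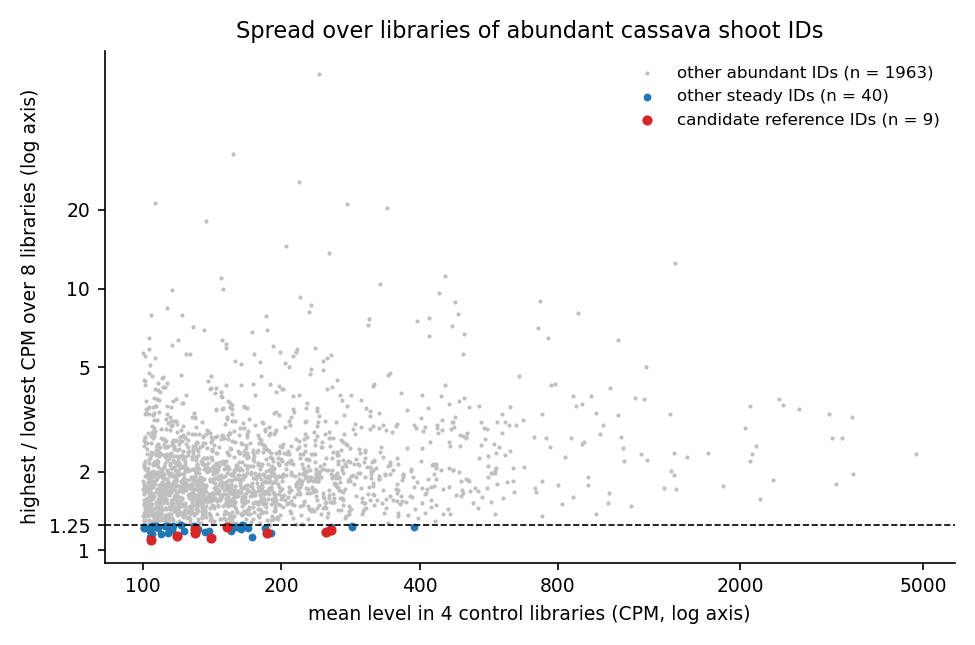
Ratio of the highest to the lowest CPM over 8 libraries (log axis) against the mean CPM in the 4 control libraries (log axis) for the 2012 abundant IDs. Blue and red points are the 49 steady IDs, red the 9 candidate references among them, and the dashed line is the limit of 25% on the spread; no point right of 400 CPM lies under the line.

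The limit cut through a continuous range. The members just inside it were MANES_02G081900, MANES_11G128700 and MANES_12G080800, each with a ratio of highest to lowest CPM of 1.249. The IDs just outside were MANES_15G005600 with a ratio of 1.252, MANES_11G015500 with 1.255 and MANES_18G068100 with 1.255. On the level criterion, MANES_02G090800 was the lowest member with a control mean of 100.1 CPM, and MANES_06G174000 missed it with 99.0 CPM. Of all 2012 abundant IDs, 364 stayed within a ratio of 1.5 and 1194 (59.3%) within a ratio of 2.

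The coefficient of variation (CV, the SD over the mean) of the members over 8 libraries ran from 3.87% to 8.96% with a median of 6.58%. All 2012 abundant IDs had a median of 20.5%. Within the control libraries the members' median CV was 6.57% and within the cold libraries 5.27%, and 29 of the 49 had the lower CV in the cold group. The smallest count of any member in any library was 5585. Counting error alone would give a CV of 0.55% to 1.10%, so it made up a median of 1.97% of a member's variance and at most 7.65%.

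MANES_05G082400 had the lowest CV of all 49. It measured 99.2, 109.2, 108.2 and 99.9 CPM in control replicates 1 to 4 and 99.4, 104.4, 103.7 and 106.6 CPM in cold replicates 1 to 4. The 4 cold values lay wholly inside the control range, and the group means were 104.1 ± 5.3 and 103.5 ± 3.0 CPM (SD, n = 4 each). MANES_11G137400 measured 109.4, 114.4, 124.7 and 124.5 CPM in control and 120.1, 123.1, 121.7 and 117.7 CPM in cold libraries. Its cold values also fell within the control range, with means of 118.2 ± 7.6 and 120.7 ± 2.3 CPM and a CV of 4.50%.

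MANES_03G196900 measured 143.9, 145.9, 141.3 and 130.8 CPM in control and 131.3, 134.9, 144.4 and 146.5 CPM in cold libraries, a CV of 4.67%. Both groups spanned nearly the same range. MANES_15G069600 measured 189.9, 187.8, 189.1 and 177.5 CPM in control and 171.0, 191.4, 192.4 and 199.9 CPM in cold libraries, a CV of 4.83%. Here the cold group held both the lowest and the highest library and enclosed the control group. These IDs also formed the pair whose ratio varied least among 1176 pairs of members. The CPM of MANES_15G069600 over that of MANES_03G196900 averaged 1.33 ± 0.03 over the control and 1.35 ± 0.05 over the cold libraries (SD, n = 4 each), and the log2 ratio had an SD of 0.044 over 8 libraries. A ratio within a library does not depend on how that library was scaled. The median SD over all pairs was 0.131, and the smallest of 1176 values is low in part because it was picked as such. This pair was not read in a left-out library.

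Low spread did not always come with overlapping groups. MANES_06G144100 had the second lowest CV (3.96%), with 104.6, 103.2, 104.3 and 101.1 CPM in control and 113.7, 107.3, 110.0 and 110.0 CPM in cold libraries. Every cold library lay above every control library, by 6.75% in the mean. MANES_18G049300 (CV 4.57%) measured 167.2, 176.2, 166.6 and 180.8 CPM in control and 182.0, 181.2, 186.9 and 188.3 CPM in cold libraries, again without overlap and with a cold mean higher by 6.91%. A ranking by CV alone thus placed both among the 6 steadiest IDs although their small cold difference exceeded the SD of either group.

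Over the 49 members, 24 had a higher and 25 a lower mean in the cold when scaled by the library total. This split depended on the scaling, with 34 higher and 15 lower under TMM (trimmed mean of M-values), 38 and 11 under RLE (relative log expression) and 25 and 24 under upper quartile factors. On the library-total scale the log2 ratio of mean cold to mean control CPM ran from -0.18 to 0.18 with a median of -0.0084, against a median of -0.045 over the 2012 abundant IDs and of -0.023 over the 26517 IDs tested. Its size was at most 0.05 for 24 members and above 0.1 for 10. The difference between groups accounted for 19.0% of the members' pooled variance on the log2 scale, and for a median of 7.45% per member. Groups formed without regard to the cold would also take some share of the variance. That share was not computed, so whether these values exceed it was not tested.

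The largest cold ratios in each direction, 2 above and 2 below 0, were as follows. MANES_08G142800 measured 108.4, 116.9, 105.7 and 100.7 CPM in control and 122.8, 121.1, 120.7 and 122.9 CPM in cold libraries, a log2 ratio of 0.18. MANES_01G173800 measured 197.2, 184.8, 188.1 and 189.0 CPM in control and 202.9, 198.1, 209.1 and 216.3 CPM in cold libraries, a log2 ratio of 0.12. In both, the lowest cold library was above the highest control library. In the other direction, MANES_15G003100 measured 127.6, 143.1, 142.5 and 142.3 CPM in control and 124.1, 124.3, 121.1 and 122.0 CPM in cold libraries, a log2 ratio of -0.18 with no overlap. MANES_16G029300 measured 252.8, 281.3, 304.9 and 302.1 CPM in control and 247.0, 249.6, 250.4 and 267.1 CPM in cold libraries, a log2 ratio of -0.17, with control replicate 1 inside the cold range.

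**Figure D2:**
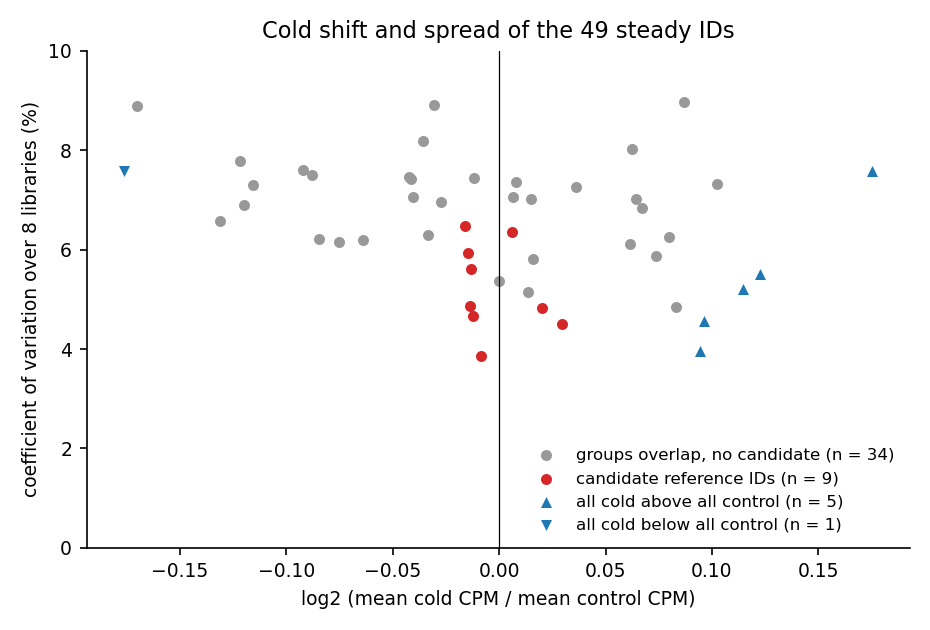
Coefficient of variation over 8 libraries (%) against the log2 ratio of mean cold to mean control CPM for the 49 steady IDs. Triangles are the 6 IDs whose groups do not overlap, 5 with cold above and 1 with cold below control; red points are the 9 candidate references, all within 0.05 of 0 on this library-total scale, while 1 of them exceeds it under TMM and 3 under RLE scaling.

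Groups did not overlap for 6 of the 49 members, 5 with cold above (6.92% of all IDs tested) and 1 with cold below control (11.7%). Over all IDs tested the groups did not overlap for 18.6%. With edgeR (quasi-likelihood test, p-values adjusted by Benjamini-Hochberg over 26517 IDs), 9.15% of IDs were called at an adjusted p below 0.05 and 0 of the 49 members were (0 also at an unadjusted p below 0.05, lowest adjusted p 0.279 for MANES_08G142800). DESeq2 called 16.5% of its IDs and 0 members (1 at an unadjusted p below 0.05), and limma-voom called 8.96% and 0 members (0 unadjusted). With the replicate number as a block, edgeR called 4.83% and 0 members (0 unadjusted). Since the rule bounded this same contrast, these zeros follow in part from the choice and are read no further. The median standard error of a member's log2 fold change in edgeR was 0.118, and the median size of the members' log2 cold ratio was 0.061.

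The members with the highest share of reads showed no common direction. MANES_17G025900 had the highest mean, with 360.4, 444.7, 369.6 and 380.7 CPM in control and 417.0, 390.0, 392.4 and 364.4 CPM in cold libraries. Its group means, 388.8 ± 38.1 and 391.0 ± 21.5 CPM (SD, n = 4 each), differed by far less than either SD. MANES_11G104900 measured 291.2, 261.5, 307.8 and 279.9 CPM in control and 247.3, 268.1, 263.9 and 270.2 CPM in cold libraries, overlapping, with a log2 ratio of -0.12. MANES_18G078600 differed in its spread between groups, with 252.8, 260.7, 259.9 and 254.5 CPM in control and 288.9, 256.8, 234.1 and 259.7 CPM in cold libraries. Cold replicates 1 and 3 lay on either side of its control range. The remaining members above 200 CPM were MANES_16G029300, given above, and MANES_04G083000 and MANES_15G058400, which are given with the candidates.

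Candidate references were narrowed down by further criteria on the same libraries. An ID had to meet the 25% limit also after scaling by TMM, RLE and upper quartile factors, to have a CV at or below the members' median, a log2 ratio of cold to control of at most 0.05 in size, and overlapping groups, the last 3 judged on the library-total scale. Taken singly, the 3 scalings were met by 25 members, the CV by 25, the cold ratio by 24 and the overlap by 43. All were met by 9 members, which are ranked by CV. The first 4 were MANES_05G082400, MANES_11G137400, MANES_03G196900 and MANES_15G069600, described above.

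The fifth was MANES_10G069300, with 132.1, 135.5, 124.2 and 127.7 CPM in control and 116.6, 134.5, 131.5 and 132.2 CPM in cold libraries (CV 4.86%). Its cold replicate 1 was the lowest library. MANES_15G058400 was the lowest-CV candidate above 200 CPM (CV 5.62%), with 264.5, 235.1, 250.9 and 252.3 CPM in control and 226.8, 258.5, 241.9 and 266.2 CPM in cold libraries. Cold replicate 1 was lowest here too. MANES_13G077700 (CV 5.93%) measured 140.6, 123.6, 126.0 and 127.5 CPM in control and 116.5, 131.0, 137.5 and 127.5 CPM in cold libraries, once more with its lowest value in cold replicate 1.

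MANES_04G083000 (CV 6.35%) measured 232.1, 259.5, 272.6 and 260.0 CPM in control and 276.8, 244.8, 239.0 and 267.9 CPM in cold libraries. Its order was the opposite, with cold replicate 1 highest and control replicate 1 lowest. MANES_07G094600 (CV 6.48%) measured 133.3, 155.9, 155.1 and 163.5 CPM in control and 159.9, 149.7, 149.0 and 142.4 CPM in cold libraries, with control replicate 1 lowest. Group means of the 9 candidates differed by -1.10% to 2.05% (cold against control) on the library-total scale, with 3 higher in the cold. Under TMM and under RLE all 9 were higher in the cold, with log2 ratios of 0.015 to 0.065 and of 0.028 to 0.079. The limit of 0.05 was then exceeded by MANES_11G137400 under TMM (0.065), and by MANES_11G137400 (0.079), MANES_15G069600 (0.064) and MANES_04G083000 (0.056) under RLE. The CV, cold ratio and overlap were then judged on another scale, with the spread limit kept for TMM, RLE and upper quartile factors. The limits on the library-total scale were dropped, so an ID need not be a member. On the TMM scale 10 IDs passed, 7 of them among the 9. The RLE scale gave 9 with 5 shared, and the upper quartile scale 10 with 8 shared.

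**Figure D3:**
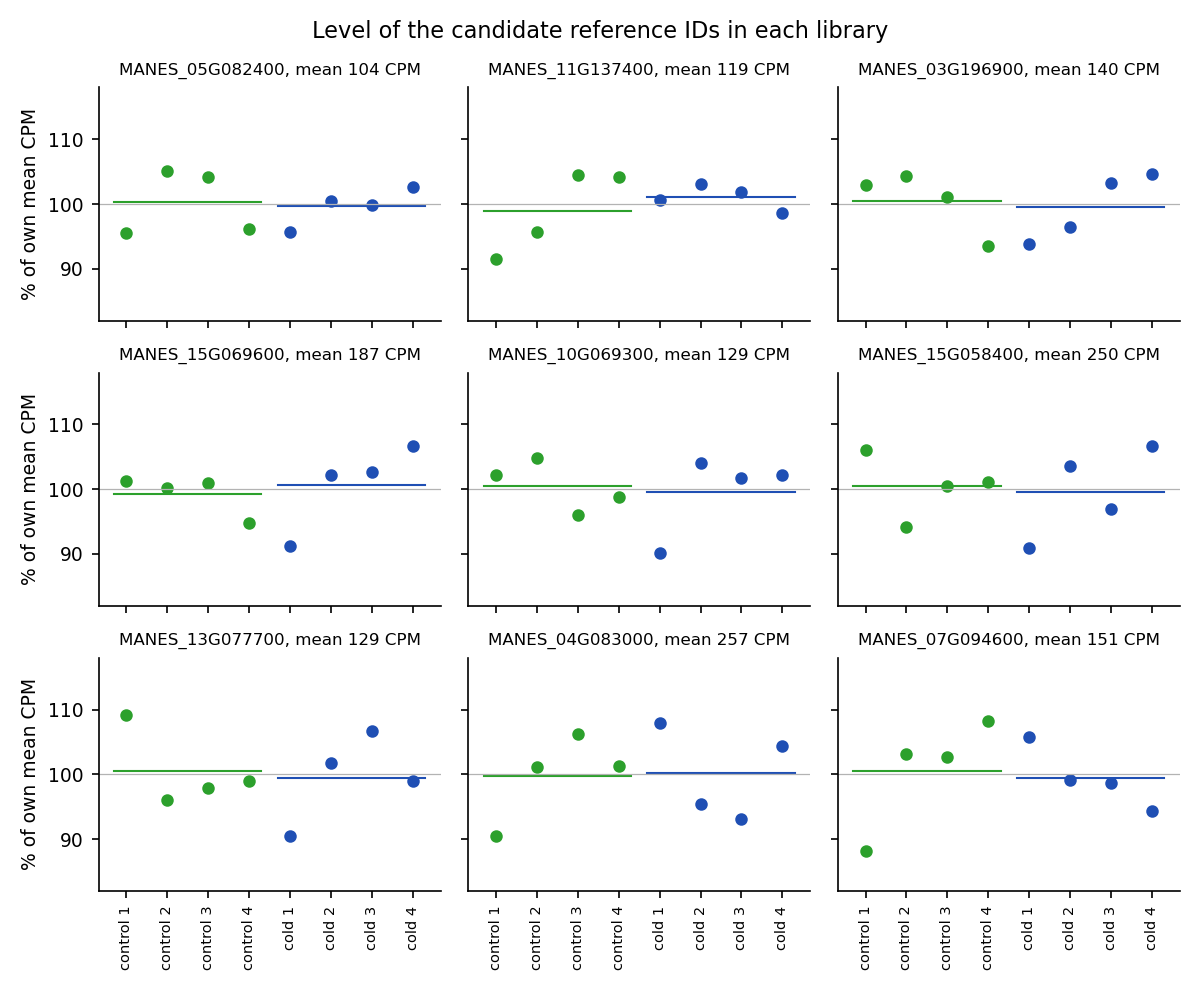
Level of each of the 9 candidate references in the 8 libraries, as a percentage of its own mean CPM; green points are control and blue points cold libraries, and lines are group means (n = 4). All points lie between 88.2% and 109.2%, and the group means differ by at most 2.05%.

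Candidates differed in how often they passed when each library was left out in turn. All criteria were applied to the other 7, but with TMM, RLE and upper quartile factors still taken from all 8. With fixed factors, leaving out a library cannot widen the spread. The 9 thus met the limit on spread in advance under every scaling. Only the remaining criteria, such as the CV, the cold ratio and the overlap, could fail. MANES_05G082400, MANES_03G196900, MANES_10G069300 and MANES_15G058400 passed in all 8 repeats. MANES_15G069600, MANES_13G077700 and MANES_04G083000 passed in 7, MANES_11G137400 in 6 and MANES_07G094600 in 3. The whole list held 19 IDs without control replicate 1, 16 if cold replicate 1 was left out and 14 if it was cold replicate 2, against 9 with all libraries. Without control replicate 1, cold replicate 1 and cold replicate 3 together it held 67 IDs, 6 of them among the 9. Fewer libraries loosen the limit by construction.

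A measure that needs no scaling was also computed, among the members only. Their mean log2 level on the library-total scale, which chose them, varied only from -0.018 to 0.016 between libraries. A similar order to that of the CV thus follows in part from the choice and is no separate check. For each member, the SD over 8 libraries of its log2 ratio to every other member was averaged (the M value of geNorm, a method for ranking reference genes, where low is steady). M ran from 0.103 to 0.162 with a median of 0.131. MANES_05G082400 ranked first by M, MANES_06G144100 second, then came MANES_11G137400, MANES_15G069600, MANES_03G196900 and MANES_10G069300. The second in this order had non-overlapping groups, which M, like the CV, does not take into account. MANES_07G094600 ranked 25 of 49.

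Correlations between members over the 8 libraries had a median of -0.0077 and ran from -0.92 to 0.89, a description of 8 points that share their library totals. The first 3 components of their log2 levels held 24.5%, 22.2% and 18.6% of the variance. The highest library of a member was most often control replicate 3 (10 members) and least often control replicate 4 (2), and the lowest was most often cold replicate 1 (12) or control replicate 1 (11). Together the members took 0.718% to 0.740% of the counts of each library.

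The 9 candidates averaged on the log2 scale gave each library a factor between -0.056 (cold replicate 1) and 0.031 (cold replicate 4), with an SD of 0.028. Since each candidate was chosen for a cold ratio near 0 on the library-total scale, the groups' mean factors had to be close (-0.0026 for cold against control). TMM factors, taken from a trimmed set of the expressed IDs, ran from -0.078 to 0.056 on the log2 scale. The candidates and TMM differed most in cold replicate 3, by 0.075, and in control replicate 4, by -0.060. The TMM factor of cold replicate 3 was -0.066, and that of the candidates 0.0085. The median log2 cold ratio of 23061 IDs of at least 1 CPM was -0.026 with the library total and 0.0069 with TMM; scaling by the candidates gave -0.023, close to the former by the way they were chosen. Which scale is nearer to RNA per cell was not tested.

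**Figure D4:**
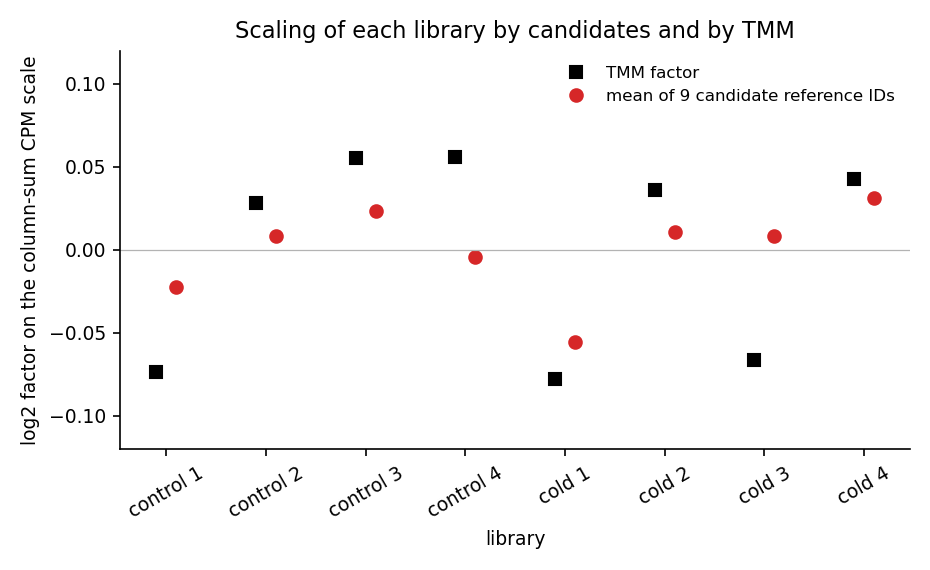
Log2 scaling factor of each library on the scale of the library total, from TMM (black squares) and from the mean log2 level of the 9 candidate references (red circles). The black squares of control replicate 1, cold replicate 1 and cold replicate 3 lie lowest, at -0.078 to -0.066, while the candidates place cold replicate 3 at 0.0085.

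Under TMM-scaled CPM the rule found 43 IDs, of which 29 were among the 49. RLE scaling found 38 IDs with 25 shared, and upper quartile scaling found 44 with 33 shared. The largest ratio of a member under TMM was 1.37. The cold differences moved up together by about the difference of the mean log2 TMM factors between groups (-0.033 for cold against control), so that the log2 ratio became 0.21 for MANES_08G142800, 0.13 for MANES_06G144100 and -0.14 for MANES_15G003100.

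How far the choice holds in a library that did not take part was measured by applying the rule to 7 libraries and reading the eighth. Of the IDs so chosen, 50 of 101 (49.5%) were still within the limit when control replicate 1 was added, 49 of 95 (51.6%) with cold replicate 3 and 49 of 83 (59.0%) with cold replicate 1. In the other 5 libraries 71.2% to 87.0% stayed. The libraries with the lowest shares were those with the large share of counts in their 1000 most abundant IDs; the part of that share in this result was not tested. In the library left out, a chosen ID deviated from its mean in the other 7 by a median of 5.27% to 14.5%, against 4.62% to 4.96% within the 7 that chose it. The CVs above belong to IDs selected for a small spread. How much of the gap comes from that choice and how much from the libraries that stand apart was not tested.

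Averaged candidates deviated less in a left-out library than single ones in most cases. Deviations of opposite sign cancel in a mean, so a smaller value was largely fixed in advance. Whether a mean serves better as a reference was not tested. Candidates were chosen on 7 libraries (10 to 19 IDs), but with TMM, RLE and upper quartile factors still taken from all 8. The library left out thus had some part in the choice. Their mean log2 level in it deviated from that of the others by 0.40% to 3.65% in size in 7 cases. Single candidates deviated there by a median of 4.85% to 11.8%. For cold replicate 3 the mean deviated by -8.62%, more than the median of 3.72% for its 11 candidates taken singly.

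**Figure D5:**
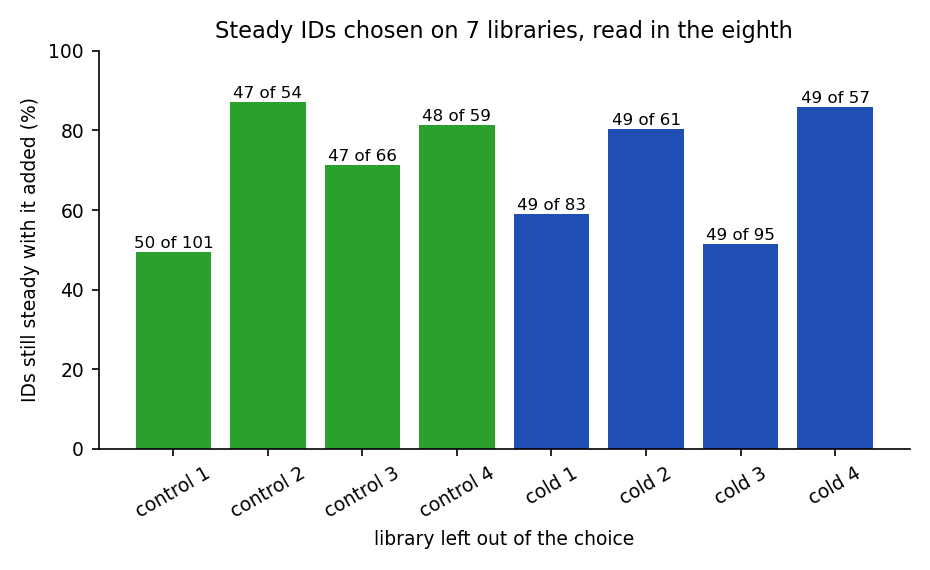
Share of the IDs chosen by the rule on 7 libraries that still met the 25% limit when the library named on the horizontal axis was added; green bars are control and blue bars cold libraries, and labels give the numbers. Shares for control replicate 1, cold replicate 1 and cold replicate 3 are 49.5%, 59.0% and 51.6%.

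Steadiness among untreated shoots alone was examined as a separate choice that uses no cold value. Of the 2012 abundant IDs, 481 (23.9%) stayed within the 25% limit over the 4 control libraries. In edgeR's quasi-likelihood test 45 of them (9.36%) were called in the cold, 14 higher and 31 lower, and of the other 1531 abundant IDs 146 (9.54%) were called, which gives 9.49% over both. All of these shares are near the 9.15% of all IDs, and their differences were not tested. The median size of the log2 cold ratio was 0.19 for the 481 and 0.245 for all abundant IDs. The ratio ran from -2.68 to 2.43 among the 481, and its size was above 1 for 10 of them. Only 49 of the 481 (10.2%), the members, kept the limit when the cold libraries were added. The limit is harder to keep over 8 values than over 4 by construction. Among the 4 cold libraries alone 130 of the 481 kept it, so most failed it there whatever their difference from control. What part the cold had in this loss was not tested. Without control replicate 1 the set held 1127 IDs with 82 calls (7.28%, against 7.59% of all IDs in that fit). Without control replicate 2 it held 646 with 26 calls (4.02% against 3.98%), and without cold replicate 4 the calls were 20 of the 481 (4.16% against 4.72%). DESeq2 called 88 of the 481 (18.3%), as it did 18.3% of all abundant IDs.

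The members were spread over the genome, as far as the chromosome number carried in the ID shows. They lay on 17 of the 18 chromosomes, with 6 of 109 abundant IDs on chromosome 11, 5 of 138 on chromosome 3 and 0 of 113 on chromosome 9. No members were neighbours. The closest pair, MANES_11G096700 and MANES_11G100000, stood 33 IDs apart in the order of the IDs. Order was read from the IDs and not from coordinates, and the differences between chromosomes were not tested.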

How the data were processed

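Total RNA of 4 control and 4 cold-treated samples was sequenced as strand-specific libraries, per the labels' protocols. The authors deposited whole-number counts per gene ID, 1 column per library, with no scaling. Tools listed in the submitters' processing notes, with no role or order, are STAR 2.7.10a, SAMtools 1.6 and bedtools 2.30. Not given in the sources used here are the counter and its strand setting, how reads with several matches were treated, the genome build and the annotation, so IDs with near-identical copies or overlapping neighbours are uncertain.

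CPM was computed as the count over the column sum times 1000000. The all-ID comparison used edgeR 4.0.16 in R 4.3.3 (filterByExpr, TMM, robust quasi-likelihood fit, 2-sided, Benjamini-Hochberg over 26517 IDs, no replicate block, common biological coefficient of variation 0.326), checked on simulated counts. DESeq2 1.42.0 and limma-voom (limma 3.58.1) were alternatives. Libraries of a group differed beyond counting noise (lowest chi-square per degree of freedom 66.2), so none was counted as a second sequencing of another. This check cannot tell separate plants from separate preparations of the same material. Other values came from Python 3.11.15 with numpy 2.4.6, pandas 2.3.3 and matplotlib 3.10.9.

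The members, lists and criteria were chosen with earlier results of these data known. IDs were named as follows: the 6 members of lowest CV, the 6 with the highest mean CPM, the 2 with the largest and the 2 with the smallest cold ratio, the steadiest candidate per level class, the pair with the steadiest ratio, and 3 IDs on each side of the 25% limit. The other candidates and IDs at the level limit were named after their values were seen. Gene lists and markers that need names were not used. Alternatives were other scalings, limits, tools, a replicate block, and each library left out.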

Additional observations from a re-analysis of the deposited data

Results flagged for a closer look

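In 42 groups of 4 values (named IDs and summaries of the steady set), 3 held a value far from the rest of its group, where chance gives about 1 in 20. MANES_15G069600 measured 177.5 CPM in control replicate 4, against 187.8 to 189.9 CPM in the other control libraries. MANES_15G003100 measured 127.6 CPM in control replicate 1, against 142.3 to 143.1 CPM in the others, and this library lay nearest to the cold values of 121.1 to 124.3 CPM. MANES_16G029300 measured 267.1 CPM in cold replicate 4, against 247.0 to 250.4 CPM in the other cold libraries.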

How the results depend on the processing

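The number of steady IDs followed its limits, with 19 IDs at a limit of 20%, 83 at 30%, 182 from 50 CPM and 6 from 200 CPM. Leaving out 1 library gave 54 to 101 steady IDs (101 when control replicate 1, 83 when cold replicate 1 and 95 when cold replicate 3 was left out) and 10 to 19 candidates. The median cold ratio of the steady IDs turned from -0.0084 to 0.016 in the 43 chosen anew with TMM and 0.029 in the 38 with RLE scaling. For the same 49 IDs it was 0.024 with TMM and 0.039 with RLE. Such a ratio moves with the difference of the mean log2 factors between groups (-0.033 with TMM, cold against control). These medians were no call, and the part of the new choice of IDs was not tested. Over all IDs, 2425 were called by edgeR and 4667 by DESeq2; the cause was not tested. Without 1 library 1066 to 2356 were called, from fewer samples. The numbers were 1066, 1360 and 1557 if control replicate 2, 3 or 4, and 1547 and 1264 if cold replicate 3 or 4 was left out. Of the IDs steady in control, 20 to 82 were called without 1 library (4.02% to 10.6%, against 3.98% to 8.81% of all IDs). DESeq2 called 88 (18.3%, against 16.5% of all IDs). An alternative chosen after seeing the data left out control replicate 1 and cold replicates 1 and 3 together and gave 384 steady IDs, 67 candidates and 1388 calls, from fewer samples. In 16 alternative fits 0 steady IDs were called, where 3.98% to 16.5% of all IDs were. The rule bounded this same contrast, so these zeros follow in part from the choice. For 18 named members, 178 of 180 recomputed cold ratios moved by less than the spread between replicates. Most of the 180 left out 1 library, which cannot move a mean of 4 values by as much as that spread. Only those with TMM and edgeR, without or with the replicate block, could move further. The 2 that did were of MANES_06G144100, which moved from 0.094 to 0.128 with TMM and edgeR and to 0.127 with the replicate block. The signs of 8 of the 18 held throughout, most values being near 0.

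No label says that equal replicate numbers mark shared material, and deviations of same-numbered libraries correlated at 0.12, 0.071, -0.33 and -0.050. With the replicate block 1281 IDs (4.83%) were called over all, 20 of the 481 steady in control (4.16%) and 0 steady members.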

Other observations

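Some IDs were steady in 7 libraries and far off in the last. MANES_17G064800 measured 158.1 to 188.8 CPM in the 7 other libraries and 427.9 CPM in cold replicate 3, which is 2.45 times their mean. MANES_04G123900 measured 100.4 to 122.1 CPM in 7 libraries and 58.7 CPM in cold replicate 1. MANES_18G053100 measured 104.3 to 126.3 CPM in 7 libraries and 178.2 CPM in control replicate 1. Each was picked, after its value was seen, as the largest deviation in its library. Among IDs chosen without cold replicate 3, 24 lay over 20% below and 5 over 25% above their mean of the other libraries in that library; without control replicate 1 the numbers were 15 and 14, and without control replicate 2 they were 0 and 0.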
